A study of Bos taurus with 12 samples.

Results

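Desmosomes are the junctions that hold the cells of a stratified epithelium together. Their cadherins, the desmogleins and desmocollins, reach across the gap between neighbouring cells, and inside the cell their tails bind plakoglobin and the plakophilins, which link them through desmoplakin to the keratin filaments. The desmosomal cadherins DSG1 (desmoglein 1) and DSC1 (desmocollin 1) are typical of the upper, differentiating layers of keratinised epithelia, whereas PKP1 and PKP3, plakophilins 1 and 3, are plaque proteins that cluster the cadherins and hold the keratin link. The wall of the rumen carries such a keratinised epithelium, and it is the barrier between the fermenting feed and the blood.

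These 4 genes were followed in rumen papillae, the projections of the rumen wall, taken in 4 Holstein cows from the ventral part of the organ. All cows gave a sample at week 0, on a high forage diet that served as the control, and again in week 1 and week 3 of a grain challenge. The series had 12 arrays, 1 for each cow and week. Diet and calendar week coincided, no cow kept on forage throughout was among the samples, and the labels give no age of the animals. The members were all probe sets of the Affymetrix array whose only gene symbol in the array's annotation was DSG1, DSC1, PKP1 or PKP3, which gave 4 of 9155 named genes and 6 of the 24016 probe sets that were not controls. DSG1 had 2 probe sets, called S1_at and S2_at here after the ends of their identifiers, DSC1 had 2, called x_at and a_at in the same way, and PKP1 and PKP3 had 1 each. On these arrays the ending x_at marks a probe set that may share probe sequences with other transcripts, and a_at marks probes shared by several transcripts of a gene. In cattle (ARS-UCD2.0 gene order) DSG1 and DSC1 are adjacent, with no protein-coding gene between them, in a row that runs DSG2, DSG3, DSG4, DSG1, DSC1, DSC2, DSC3, while PKP1 and PKP3 lie on other chromosomes.

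All values are log2 values, and each probe set has its median over arrays at 0, so they compare arrays and hold no absolute level. The presence of the markers that define rumen epithelium could therefore not be checked, nor could the level of 1 gene be set against that of another. In whole papillae fewer cells of a type and less RNA per cell cannot be told apart. The added hybridization controls, 18 probe sets, averaged 0.49 and 0.72 on the forage arrays of cows 1 and 2 and 0.48 on the week 1 array of cow 1, where all remaining arrays were between -0.32 and 0.055, and results are given without these 3 arrays where that matters.

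DSG1, DSC1, PKP1 and PKP3 were each at their highest weekly mean on forage. In 6 of 6 probe sets the mean of week 0 lay above both grain weeks, an order found in 17.1% of all probe sets, in 31.2% when each array was centred on its median and in 33.2% after quantile normalization. The sizes differed widely: S2_at of DSG1 was 5.15-fold lower at week 3 than at week 0, the most negative difference of the 24016 probe sets in that comparison, whereas the plakophilins were 1.18-fold to 1.33-fold lower in the grain weeks. For x_at of DSC1 the week 3 mean was hardly below forage, at -0.042 ± 0.34 (SE of the fit), and the sign of that difference turned in 5 of 29 alternative fits. None of the member differences passed the test adjusted over all probe sets. The test was limma's moderated test with Benjamini-Hochberg adjustment, and "called" means an adjusted p below 0.05.

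**Figure D1:**
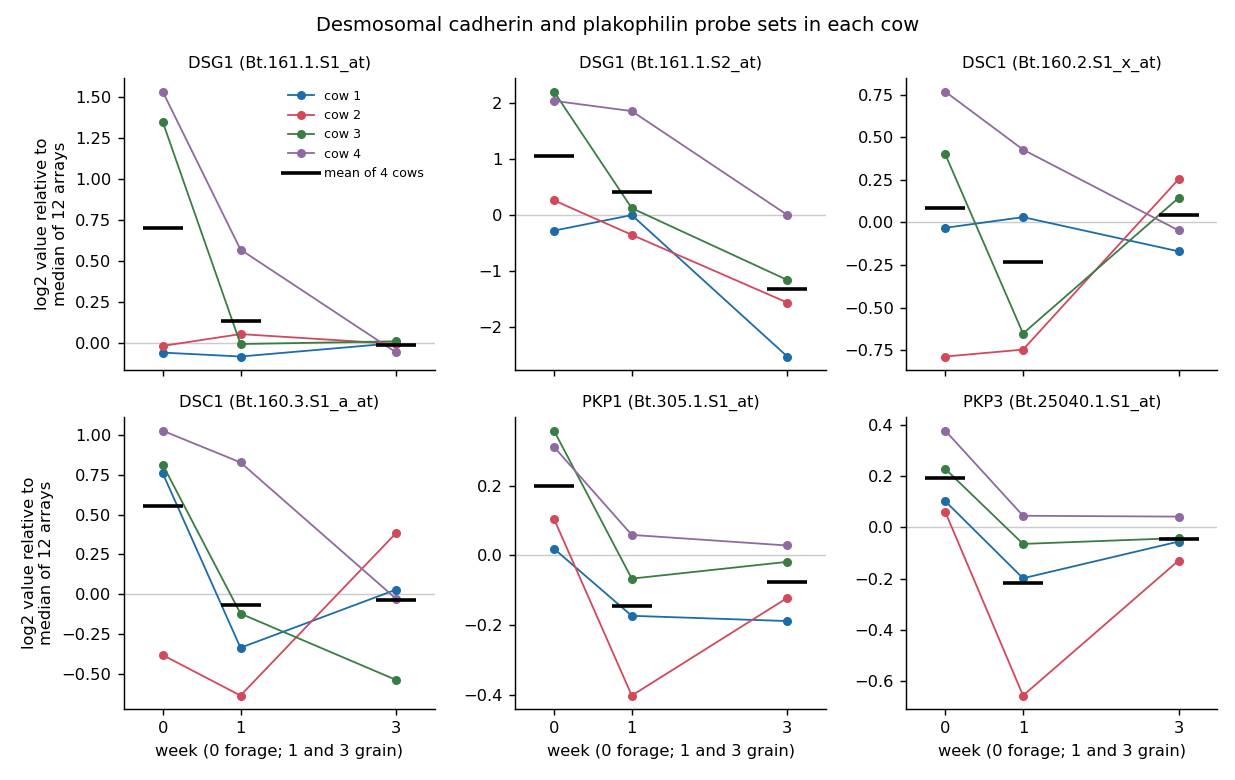
Log2 values of the 6 probe sets of DSG1, DSC1, PKP1 and PKP3 (vertical axes, relative to the median of the 12 arrays, with a separate scale in each panel) against week (horizontal axis). Coloured points joined by lines are the 4 cows and black bars are weekly means. The week 0 mean is the highest of the 3 in every panel, and cows 3 and 4 lie above cows 1 and 2 at week 0 in all 6.

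Of the cadherins, DSG1 gave the widest spread. In S2_at its log2 values at week 0 were -0.28, 0.26, 2.20 and 2.04 in cows 1 to 4. At week 1 the same cows were at -0.0014, -0.35, 0.12 and 1.85, and at week 3 they were at -2.52, -1.56, -1.16 and 0.0014. Every cow had its lowest value at week 3, and cows 1 and 2 were far below cows 3 and 4 on forage, so the weeks overlapped although each cow was lower at week 3 than at week 0. The SD over the 12 arrays was 1.44, larger than in 99.8% of probe sets.

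From week 0 to week 3 this DSG1 probe set differed by -2.37 ± 0.72 (SE of the fit without a cow term, n = 4 cows). The 95% interval of that fit was from -3.97 to -0.76, and with the cow as a block the SE was 0.35. Within cows 1 to 4 the difference was -2.25, -1.82, -3.36 and -2.04, lower in 4 of 4 (limma, adjusted p = 0.901). The rank of most negative was kept in 29 of the 30 settings computed, and it was 2 without week 0 of cow 2. At week 1 the difference from week 0 was smaller and uneven, at -0.65 ± 0.72, with 0.28, -0.61, -2.08 and -0.18 in cows 1 to 4 (limma, adjusted p = 0.763). From week 1 to week 3 it was -1.72 ± 0.72, again lower in 4 of 4 cows, by values between -2.52 and -1.21 (limma, adjusted p = 0.991), and it ranked 3 among the most negative. Most of the distance of this probe set from forage to the third week thus lay between weeks 1 and 3 in cows 1, 2 and 4, and between weeks 0 and 1 in cow 3.

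The other DSG1 probe set, S1_at, showed a different shape. Its values on forage were -0.056, -0.015, 1.35 and 1.54 in cows 1 to 4, at week 1 they were -0.080, 0.057, -0.0032 and 0.57, and at week 3 all 4 lay between -0.054 and 0.013. Thus 9 of the 12 arrays were within 0.1 of the median, and the 3 others were cows 3 and 4 on forage and cow 4 at week 1. These 3 arrays were also the highest of the 12 in S2_at. The mean difference was -0.57 ± 0.35 (SE, n = 4 cows) at week 1 and -0.71 ± 0.35 at week 3 against week 0, but it rested on cows 3 and 4. In cow 3 it was -1.34 and in cow 4 -1.59 at week 3, against 0.058 and 0.012 in cows 1 and 2 (limma, adjusted p = 0.763 at week 1 and 0.901 at week 3). Both probe sets of DSG1 therefore placed cows 3 and 4 highest on forage, and the lower values of cows 1 and 2 at week 3 were seen in S2_at alone. Whether S1_at was high enough in cows 1 and 2 to show a decrease cannot be read from values that hold no absolute level.

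DSC1, the desmocollin, differed between cows in the direction of its week 3 value. In a_at the forage values were 0.76, -0.38, 0.81 and 1.03 in cows 1 to 4, the week 1 values were -0.34, -0.64, -0.12 and 0.83, and the week 3 values were 0.029, 0.38, -0.54 and -0.029. Week 1 was below week 0 in 4 of 4 cows, by -1.10 to -0.20, with a mean difference of -0.62 ± 0.37 (SE, n = 4 cows; limma, adjusted p = 0.763). At week 3 the mean difference from forage was similar, at -0.59 ± 0.37, but cow 2 went the other way, at 0.77 (limma, adjusted p = 0.901). The second DSC1 probe set, x_at, was at -0.031, -0.79, 0.40 and 0.77 on forage, at 0.031, -0.75, -0.65 and 0.43 at week 1, and at -0.17, 0.25, 0.14 and -0.047 at week 3. Its differences were -0.32 ± 0.34 at week 1 and -0.042 ± 0.34 at week 3 against week 0, with a 95% interval at week 3 from -0.80 to 0.71, which holds differences of either sign. Between weeks 1 and 3 both DSC1 probe sets were lower in cow 4 and higher in cow 2, but they went opposite ways in cows 1 and 3. There x_at was at -0.20 in cow 1 and 0.80 in cow 3, and a_at at 0.37 and -0.42. The mean differences were 0.28 ± 0.34 in x_at and 0.028 ± 0.37 in a_at.

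The plakophilins had small differences of the same sign in every cow against forage. PKP1 was at 0.019, 0.10, 0.36 and 0.31 on forage in cows 1 to 4, at -0.17, -0.40, -0.067 and 0.059 at week 1, and at -0.19, -0.12, -0.019 and 0.028 at week 3. Each cow was lower in both grain weeks than on forage, and only the forage value of cow 1 and, at week 1 and week 3, the value of cow 4 made the groups overlap. The difference from forage was -0.34 ± 0.11 (SE, n = 4 cows) at week 1, or 1.27-fold lower, and within cows it was between -0.51 and -0.19 (limma, adjusted p = 0.763). At week 3 it was -0.27 ± 0.11, or 1.21-fold lower, and between -0.38 and -0.21 within cows (limma, adjusted p = 0.901). With the cow as a block the SE was 0.062 (limma, adjusted p = 0.267 at week 1 and 0.391 at week 3).

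In the deposited values PKP3 was the only member whose grain weeks did not overlap with forage. Its forage values were 0.10, 0.060, 0.23 and 0.38 in cows 1 to 4, its week 1 values were -0.20, -0.66, -0.065 and 0.045, and its week 3 values were -0.056, -0.13, -0.042 and 0.042. All forage values were above all grain values, with the gap between 0.060 and 0.045 at its narrowest. Such a complete separation downward was found in 0.591% of all probe sets at week 1 and in 0.754% at week 3. With centred arrays these shares were 1.17% and 1.47%, with 2 members and 1 member separated, and after quantile normalization they were 1.62% and 1.80%, with 2 members in each. The difference from forage was -0.41 ± 0.13 (SE, n = 4 cows), or 1.33-fold lower, at week 1 and -0.24 ± 0.13, or 1.18-fold lower, at week 3 (limma, adjusted p = 0.763 and 0.901). With the cow as a block its SE was 0.088 (limma, adjusted p = 0.302 at week 1 and 0.694 at week 3). Cow 2 at week 1 was the lowest array for PKP1 and for PKP3. From week 1 to week 3 PKP3 was higher in 3 of 4 cows, with 0.17 ± 0.13, and PKP1 was at 0.071 ± 0.11 (limma, adjusted p = 0.999 for both).

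**Figure D2:**
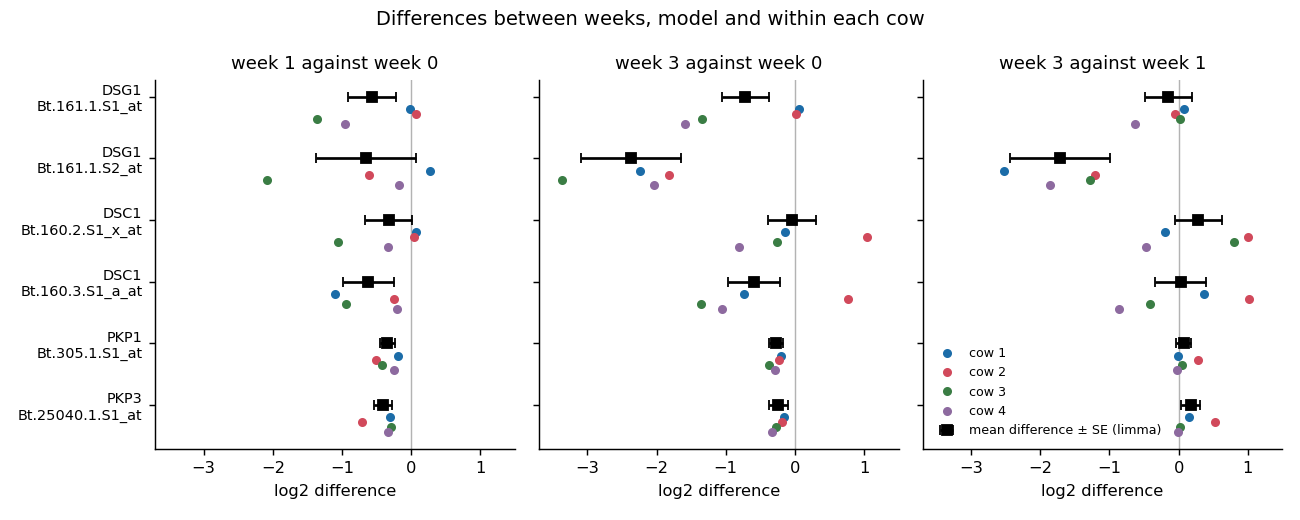
Log2 differences between weeks (horizontal axes, later minus earlier week) for the 6 probe sets of DSG1, DSC1, PKP1 and PKP3. Black squares with bars are the mean difference ± SE of the limma fit and coloured points are the differences within each of the 4 cows. Both plakophilins are below 0 in all 4 cows in both comparisons with week 0, and S2_at of DSG1 is below 0 in all 4 cows at week 3 against either earlier week.

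Set against all probe sets, 0 of the 6 members were called in the comparison of week 1 with week 0, as were 0% of the 24016, and 2 had an unadjusted limma p under 0.05, PKP1 and PKP3, against 5.15% of all probe sets in either direction and 1.87% in the downward direction. That background depended on the week 1 array of cow 1: without it 43.1% of all probe sets were under 0.05, 4.84% of all downward, and still 2 members. At week 3 against week 0 again 0 members and 0% of all were called, and DSG1 S2_at and PKP1 had an unadjusted p under 0.05, against 3.88% of all and 1.36% downward. With the cow as a block the count at week 3 against week 0 was 4 of the 6, with PKP3 and DSG1 S1_at added, against 6.12% of all and 2.19% downward, and 0 were called, the lowest adjusted p being 0.163 for DSG1 S2_at. At week 3 against week 1 no member and 0% of all were called, and DSG1 S2_at alone was under 0.05, against 4.88% of all and 2.41% downward. The moderated F test over the 3 weeks called 0 members and 0% of all, and DSG1 S2_at, PKP1 and PKP3 had an unadjusted p under 0.05, against 5.01% of all. With the block 0 members were called at week 1 against week 0, where 0.00833% of all were, and PKP1 and PKP3 had an unadjusted p under 0.05, against 7.61% of all and 3.22% downward. At week 3 against week 1 the block gave DSG1 S2_at alone, against 7.58% of all and 3.40% downward. In the F test with the block 0 members were called, where 0.00416% of all were, and 3 members had an unadjusted p under 0.05, against 8.24% of all. The comparisons with week 0 share the forage arrays, so a high forage value counts in both.

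All 12 member differences against forage were below 0, where 27.0% of all probe sets were below 0 at week 1 and 27.2% at week 3. These background shares depended on the scaling. They were 46.6% and 43.9% with each array centred on its median and 48.0% and 48.9% after quantile normalization, and the 12 member differences were below 0 under both. A difference below 0 in all 4 cows was found for 3 members at week 1 (DSC1 a_at, PKP1 and PKP3), against 3.39% of all, and for 3 at week 3 (DSG1 S2_at, PKP1 and PKP3), against 4.63% of all. From week 1 to week 3 a lower value in all 4 cows was found for DSG1 S2_at alone, against 4.59% of all, and 0 members lay wholly below, against 1.38% of all. In that comparison 2 of 6 means were below 0, against 66.6% of all in the deposited scaling. This share was 49.1% with centred arrays, with 2 members, and 54.9% after quantile normalization, with 3 members. The shares lower in all 4 cows against forage were 5.93% and 9.87% with centred arrays and 8.52% and 9.42% after quantile normalization, with 3 members each time.

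**Figure D3:**
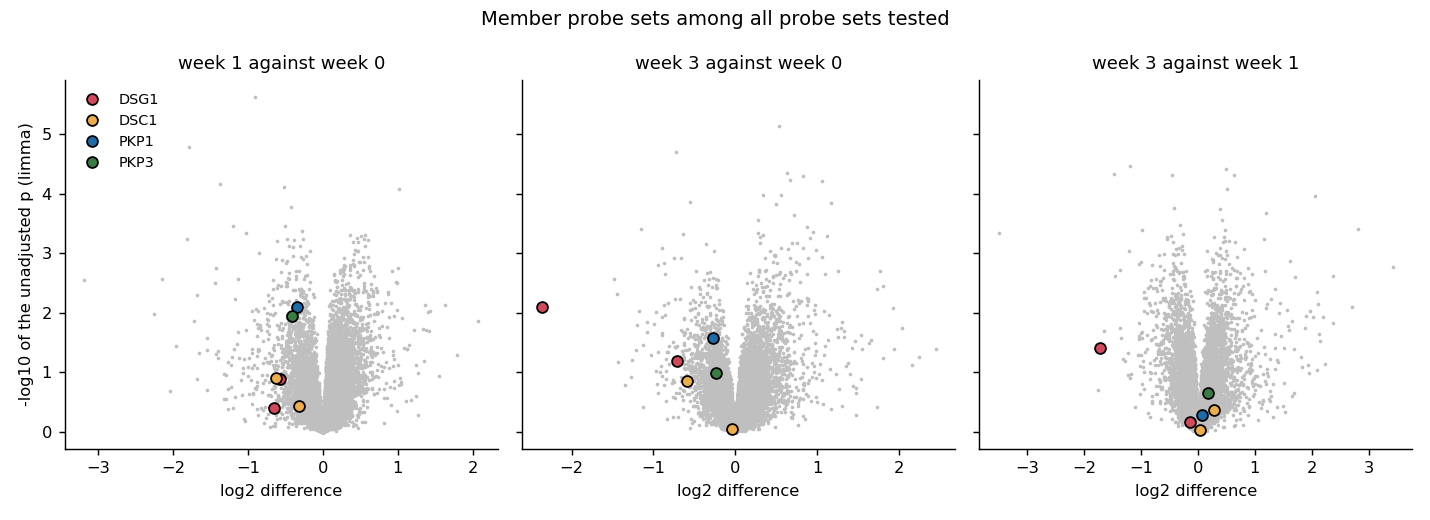
Log2 difference (horizontal axes) against -log10 of the unadjusted limma p (vertical axis) for the 24016 probe sets in the 3 comparisons, with the 6 members as coloured circles and all other probe sets as grey points. S2_at of DSG1, at -2.37, is the point furthest to the left at week 3 against week 0.

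The cows differed as well as the weeks. At week 0 cows 3 and 4 were both above cows 1 and 2 in all 6 members, an order seen in 17.0% of all probe sets. Cow 4 was the highest in 4 of the 6 at week 0, as in 14.0% of all, and at week 1 cow 4 was the highest in all 6, as in 20.5% of all. At week 3 cow 4 was the highest in 3 of the 6, against 15.1% of all. With centred arrays cow 4 was the highest in 25.3%, 33.1% and 25.4% of all probe sets at weeks 0, 1 and 3, and the order of cows at week 0 was found in 16.1%. The forage arrays of cows 1 and 2 were also those with high hybridization controls, and the part of this in the order of the cows was not tested. Without the 3 arrays of high hybridization controls, which leaves cows 3 and 4 alone at week 0, all member differences against forage were more negative. At week 3 the order of the cows at week 0 fixes this outcome. The same raised forage mean enters the week 1 comparison, so in neither week is the outcome a check of those differences. Without those arrays S2_at of DSG1 was at -1.58 at week 1 and -3.43 at week 3, and S1_at at -1.23 and -1.45. PKP1 was at -0.47 and -0.41 and PKP3 at -0.53 and -0.35, and no member was called (limma, lowest adjusted p = 0.0829 over the members at week 3). When the cow was a block too, the DSG1 probe set S2_at was at -1.19 and -2.64, PKP1 at -0.38 and -0.28 and PKP3 at -0.40 and -0.22. These values of PKP3 were slightly less negative than the -0.41 and -0.24 with all arrays.

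The share of variation that lay between weeks was high for the plakophilins and for S2_at. Of the sum of squares over the 12 arrays, 54.3% lay between weeks and 35.9% between cows for PKP1, 48.5% and 36.1% for PKP3, and 52.3% and 39.4% for DSG1 S2_at. For DSG1 S1_at the shares were 31.6% and 30.8%, and the largest, 37.7%, lay in neither. For both DSC1 probe sets the largest share also lay in neither, with 53.3% for x_at and 46.8% for a_at. Between weeks lay 9.30% and 25.7%. Over all probe sets together 19.1% lay between weeks and 50.7% between cows, and the median probe set had 12.4% between weeks. Any grouping takes up some share by chance, and this was not subtracted.

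**Figure D4:**
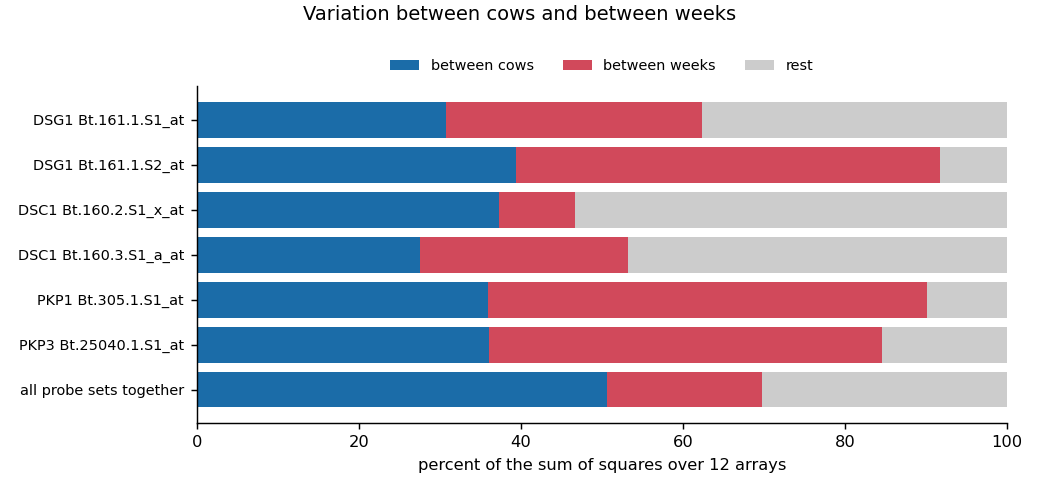
Percent of the sum of squares over the 12 arrays (horizontal axis) that lay between cows (blue), between weeks (red) and in neither (grey), for each probe set of DSG1, DSC1, PKP1 and PKP3 and for all 24016 probe sets together. The red share is 48.5% to 54.3% for PKP1, PKP3 and DSG1 S2_at and 9.30% for DSC1 x_at, against 19.1% over all.

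The members followed each other to differing degrees over the 12 arrays. Pearson's r over the 15 pairs of member probe sets was between 0.40 and 0.92, with a median of 0.68, and after each cow's mean was removed it was between 0.16 and 0.93. The closest pair was PKP1 and PKP3, with r = 0.92 and, with cow means removed, 0.93. Among the 9154 other named genes PKP1 ranked 1 in likeness to PKP3, and PKP3 ranked 2 in likeness to PKP1. The probe sets of DSG1 correlated at 0.77 and those of DSC1 at 0.74, less closely than the plakophilins did. Each pair is annotated to a single gene, but x_at of DSC1 may share probe sequences with other transcripts. These correlations describe arrays that share cows and array-wide differences, and no test goes with them.

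The genes most like each member over the 12 arrays were found among all named genes, each by its probe set of largest SD. For DSG1 (S2_at) they were DHCR7, a reductase of cholesterol synthesis, at r = 0.88, ID1, an inhibitor of DNA binding, at 0.86, IGFBP6, which binds insulin-like growth factors, at 0.85, and CHP2, a calcium-binding partner of sodium and proton exchangers, at 0.85. The other probe set of ID1 was at -0.071, so its likeness held for 1 of its 2 probe sets. With cow means removed these 4 were at 0.80 to 0.86. By r over the 12 arrays, without that removal, PKP1 ranked 38 in likeness to DSG1, DSC1 222 and PKP3 357. For DSC1 (a_at) they were DLGAP4 at 0.86, ST7 at 0.84, MAPRE2, which binds microtubule ends, at 0.83 and SEPTIN5, a septin, at 0.81, and the other probe set of DLGAP4 was at 0.0096. For PKP1 the leading genes were CMPK1, a pyrimidine nucleotide kinase, at 0.93, then PKP3, ATF4, a stress transcription factor, at 0.88 and ADPRS, a hydrolase of ADP-ribose links, at 0.87. For PKP3, after PKP1, they were CMPK1 at 0.91, LYPD3, a membrane-anchored protein of stratified epithelia, at 0.91 and DNAJB12, a chaperone of the endoplasmic reticulum, at 0.90. ADPRS and DNAJB12 have 3 probe sets each, whose lowest r was -0.36 and -0.17.

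Of 10 other desmosome genes 6 were measured, and 0 were called in any comparison. No probe set here named DSG2, DSG3, DSG4 or DSP, the desmoplakin gene. DSC3, a desmocollin of the basal layers, was at 0.18 ± 0.25 at week 1 and -0.25 ± 0.25 (SE, n = 4 cows) at week 3 against week 0, the latter lower in 4 of 4 cows, and at -0.42 ± 0.25 at week 3 against week 1. DSC2, the most widely expressed desmocollin, was at -0.026 ± 0.077 and -0.028 ± 0.077 against week 0, and JUP, plakoglobin, which binds the tails of the cadherins, at -0.048 ± 0.075 and -0.012 ± 0.075. PKP2, the plakophilin of simple epithelia and heart, was at 0.26 ± 0.17 and 0.12 ± 0.17, and 1 of its 2 probe sets had the other sign both times. PKP4 was at 0.041 ± 0.12 and 0.081 ± 0.12, and PERP, a membrane protein of desmosomes, at -0.014 ± 0.053 and -0.038 ± 0.053. The list had 3 of 6 lower at week 1, with a median of 0.014, and 4 of 6 lower at week 3, with a median of -0.020, where, in the deposited scaling, 36.7% and 35.5% of the 9155 named genes were lower and their medians were 0.024 and 0.017. No test of a difference between these genes was made.

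**Figure D5:**
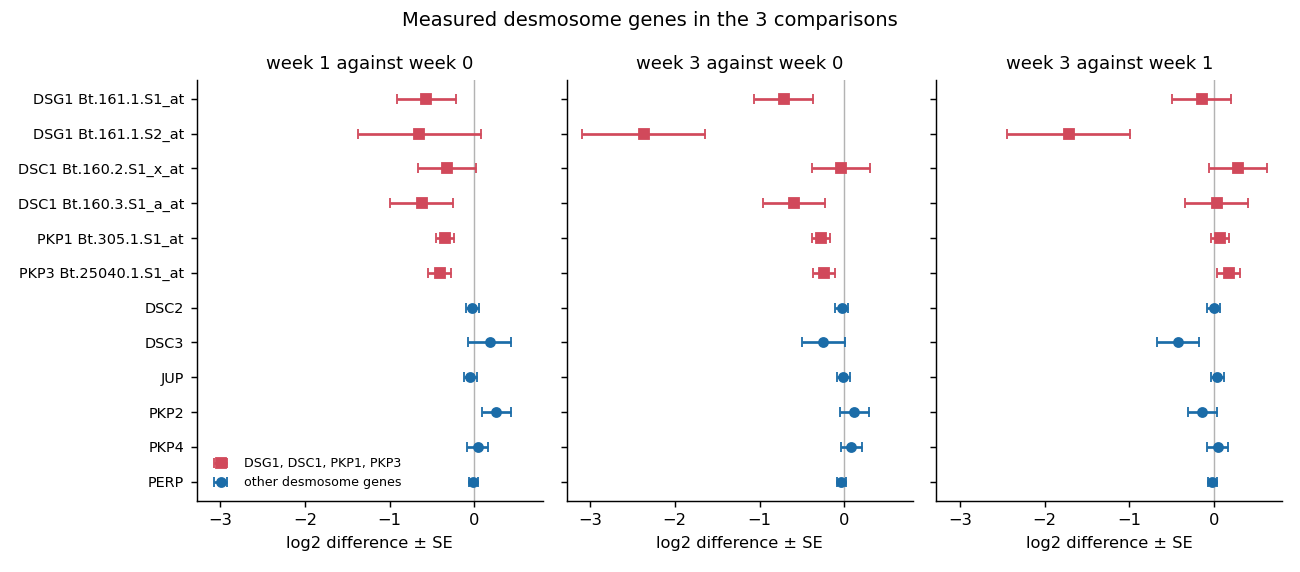
Log2 differences ± SE of the limma fit (horizontal axes, later minus earlier week) for the 6 probe sets of DSG1, DSC1, PKP1 and PKP3 (red squares) and for the 6 other measured desmosome genes (blue circles), each by its probe set of largest SD. In the comparisons with week 0 the red squares lie at or below 0, from -2.37 to -0.042, and the blue circles between -0.25 and 0.26.

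Genes of the surrounding program were counted in the same way, and 0 members of these lists were called by limma in any comparison. Of the adherens junction genes 5 of 9 were measured, with 4 lower at week 1 (median -0.088) and 2 lower at week 3 (median 0.0066). CTNNA1, alpha catenin, was at -0.14 ± 0.085 (SE, n = 4 cows) at week 3, and CDH3, P-cadherin, at -0.19 ± 0.17 at week 1 and 0.19 ± 0.17 at week 3. Of the cornified envelope genes 6 of 17 were measured, with 5 lower at week 1 (median -0.14) and 4 lower at week 3 (median -0.025). At week 3 S100A7, a calcium-binding protein, was at 0.032 ± 0.039 and its relative S100A12 at -0.053 ± 0.069. TGM3, a transglutaminase that cross-links the envelope, was at -0.45 ± 0.18 at week 1 and 0.13 ± 0.18 at week 3, unlike the plakophilins, whose differences from forage were below 0 in both weeks. Of the proteases and their inhibitors that act on junctions 5 of 13 were measured, with 4 lower at week 1 (median -0.21) and 1 lower at week 3 (median 0.11). KLK10, a kallikrein-related peptidase, was at -1.96 ± 0.81 at week 1 and 0.40 ± 0.81 at week 3, and PRSS8, a membrane serine protease, at -0.29 ± 0.17 and 0.12 ± 0.17. CTSV, a cathepsin, was at 0.11 ± 0.13 at week 3. ADAM10, a sheddase, was at -0.16 ± 0.14 at week 3, and 2 of its 3 probe sets had the other sign there.

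Among 12 suprabasal keratins and differentiation genes 5 were measured, with 3 lower in each comparison with week 0 (medians -0.099 and -0.0051). DMKN, secreted by differentiating keratinocytes, was at -1.79 ± 0.24 at week 1 and -0.63 ± 0.24 at week 3, lower in 4 of 4 cows in both. Of 16 regulators of keratinocyte differentiation 9 were measured, with 5 lower at week 1 (median -0.023) and 1 lower at week 3 (median 0.065). OVOL1, a transcription factor of the epidermis, was at 0.24 ± 0.10 and KLF5, a factor of proliferating epithelial cells, at 0.13 ± 0.059 at week 3.

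Markers of the cell layers and of other cell types in the papillae also differed between weeks, and their part in the values of DSG1, DSC1, PKP1 and PKP3 was not tested. Of 9 basal layer markers 6 were measured, and 6 were lower at week 1 (median -0.32) and 5 at week 3 (median -0.28), with 0 called. Their mean per array was 0.091 to 0.41 on forage, -0.34 to 0.28 at week 1 and -0.31 to 0.048 at week 3. The integrin ITGB4, which anchors basal cells, had a difference of -0.53 ± 0.16 (SE, n = 4 cows) at week 3. COL17A1, a transmembrane collagen, had one of -0.36 ± 0.12. Of 10 fibroblast and matrix markers 9 were measured, and 5 were higher at week 1 (median 0.17) and 8 at week 3 (median 0.41), with COL3A1 at 0.83 ± 0.13 at week 3. Their mean per array was -0.45 to 0.087 on forage, -0.42 to 0.21 at week 1 and 0.077 to 0.35 at week 3.

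Leukocyte markers, 11 of 11 measured, were higher for 9 at week 3 (median 0.28), with CD14, a monocyte receptor, at 1.10 ± 0.46, and for 5 at week 1 (median -0.12). On forage their mean per array was 0.39, 0.12, -0.13 and -0.62 in cows 1 to 4. Cows 3 and 4, which had the highest member values there, thus had the lowest leukocyte marker values. Fibroblast and matrix markers had the same order on forage, at 0.087, -0.26, -0.34 and -0.45. Basal layer markers did not, at 0.41, 0.33, 0.091 and 0.36. The share of all probe sets with this order was not computed, and a link to the members was not tested. Markers of vessels and smooth muscle, 10 of 10 measured, were lower for 6 and higher for 4 in both comparisons with week 0 (medians -0.070 and -0.041). The muscle markers were mixed at week 3, with DES, desmin, at -0.97 ± 0.31 and CNN1 at -0.50 ± 0.22. TAGLN was at -0.047 ± 0.17, MYH11 at 0.0017 ± 0.18 and ACTA2 at 0.15 ± 0.25. Of 7 rumen epithelium markers 5 were measured, with 3 lower at week 1 (median -0.031) and at week 3 (median -0.15). Of 5 melanocyte markers 4 were measured, and all 4 lay within 0.03 of 0 in both comparisons. None of these markers was called, and whether they are expressed at all cannot be read from values centred on each probe set's median.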

How the data were processed

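Per the labels' protocols, biotin-labelled cRNA made from 10 µg of total RNA was hybridised to Affymetrix arrays. Per the submitters' processing notes the authors used GCRMA, with no version named, and the deposited log values were read as log2. No source used here names the base, and 2 was chosen since a 16-bit scanner has 65535 levels, whereas the largest spread of any probe set, 11.2, would mean a 74399-fold range if the logs were natural. Every probe set was centred at a median of 0, so no filter on level was possible. Of 24016 probe sets without 112 controls, 13292 named 1 gene, 86 several and 10638 none. Of those naming 1 gene, 13263 matched the ARS-UCD2.0 gene table, which gave symbols and gene order alone. No genome build goes with the values, so no coordinates are given.

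A limma 3.58.1 model (R 4.3.3, lmFit and eBayes, two-sided) with a mean per week and no cow term was fitted to all 12 arrays and all 24016 probe sets, with Benjamini-Hochberg adjustment over all of them. The same cows were sampled each week, and their deviations from the weekly means correlated at 0.303 to 0.690 for the same cow and at -0.435 to 0.0662 for different cows. For this reason the cow was also fitted as a block. Every SE and interval given is from the fit without a cow term unless the block is named. With the block the SE was 0.35 for DSG1 S2_at, 0.062 for PKP1 and 0.088 for PKP3. For the other member probe sets it was 0.30 to 0.34. The numbers pair the samples because they name the animals. A gene with several probe sets was represented in lists by the one of largest SD, and members by all. Named from each list were up to 4 genes by smallest p at week 3 against week 0, and for each member the 4 genes of largest Pearson r. Added after their values were seen were DSC2 and JUP among the desmosome genes and TAGLN, MYH11 and ACTA2 among the muscle markers. The members, lists and markers were chosen with earlier results of these data known. The steps were tested on simulated data for the comparison of week 1 with week 0 alone, with cow effects and independent noise in each probe set. Array-wide differences were not simulated, so that test does not cover them. Alternatives were the block, scaling, array weights, filters, a robust prior and leaving out arrays or cows. The number of arrays limits the precision.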

Additional observations from a re-analysis of the deposited data

How the results depend on the processing

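Each of the 18 member differences was computed under 29 alternatives, and 13 of them kept their sign in all. No single difference was called under any alternative. The count of members called in the F test over the 3 weeks became 1 with array weights, DSG1 S2_at (limma, adjusted p = 0.0441). There 6112 of all probe sets were called, against 0 in the same fit without weights. Array weights also turned that probe set to 0.40 at week 1 against week 0, and at week 3 against week 1 they turned PKP1 to -0.046 and DSC1 a_at to -0.29. The last was also turned by quantile normalization, with and without the replicate block (-0.015 in both), and by leaving out the 3 arrays with high added controls (-0.062, and -0.084 with the block). The cow as a block changed no call of a member, and its lowest adjusted p over the members was 0.267 at week 1 against week 0, 0.163 at week 3 against week 0 and 0.243 at week 3 against week 1. The block together with another scaling or without those 3 arrays, and the background shares under other scalings, were chosen after seeing the data. When a single array or cow was left out, in 16 fits, DSC1 x_at at week 3 against week 0 lay between -0.40 and 0.22. At week 3 against week 1 DSC1 a_at lay between -0.30 and 0.33, PKP1 between -0.015 and 0.14 and DSG1 S1_at between -0.22 and 0.013. Sizes also moved without a change of sign. At week 1 against week 0 DSG1 S2_at lay between -1.13 (without week 1 of cow 4) and -0.17 (without cow 3), DSG1 S1_at between -0.82 (without week 0 of cow 1) and -0.29 (without week 0 of cow 4), DSC1 x_at between -0.61 (without week 0 of cow 2) and -0.079 (without cow 3), and DSC1 a_at between -0.93 (without week 0 of cow 2) and -0.43 and PKP3 between -0.50 and -0.26 (both -0.43 and -0.26 without week 1 of cow 2). At week 3 against week 0 DSC1 a_at lay between -1.05 (without cow 2) and -0.34 (without cow 3) and DSG1 S1_at between -0.97 and -0.42 (without cow 4). At week 3 against week 1 DSC1 x_at lay between 0.040 (without cow 2) and 0.53 (without cow 4) and PKP3 between 0.026 (without week 1 of cow 2) and 0.26. Members with an unadjusted p under 0.05 numbered 1 to 4 at week 1 and 0 to 5 at week 3 against week 0, with 0 without cow 3 and 5 without cow 2, where 3.25% and 2.47% of all probe sets were. At week 1 the share of all was 50.1% with array weights, with 1 member, and 17.7% without the 3 arrays, with 4 members. The causes of these shifts were not tested. Over all probe sets the calls reached 9970, 7 and 97 in the 3 comparisons, each with array weights. The same fit without weights gave 0, but other alternatives without weights also gave calls. Without week 1 of cow 1 there were 45 at week 1 against week 0 and 38 at week 3 against week 1. Without the 3 arrays of high hybridization controls there were 6 at week 3 against week 0. Among the 18 groups of 4 arrays no member value stood apart by Dixon's criterion.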
